A study of Mus musculus with 4 samples.

Results

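The proteasome gene set held 44 of the 18193 genes named by probe sets with 1 gene symbol. Its members were the mouse genes whose symbol starts with Psma, Psmb, Psmc, Psmd or Psme followed by a digit, each read by its brightest probe set (highest average of the log2 values). They were covered by 91 probe sets, and 23 genes had 2 or more. By role, 15 were α or β subunits of the standard core particle (Psma8, a germ cell form, among them) and 1 was the thymic subunit gene Psmb11. Of the others, 17 belonged to the regulatory particle, 3 were chaperones of its assembly with Psmd names, 4 were immunoproteasome genes and 2 were other activators. Psmc3ip, a cofactor of meiotic recombination, and Psme3ip1, which encodes a partner of an activator, entered by their names and are not proteasome subunits, which leaves 42. Psme2, the partner of Psme1, was not analysed here.

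The arrays came from a mouse study of how β-catenin affects hematopoietic stem cells in long culture, with 1 Affymetrix array for each of 4 conditions. Lineage-negative, Sca-1-positive, c-kit-positive (LSK) bone marrow cells carried a β-catenin retrovirus and were collected at day 3, or were grown on to day 50 and day 300 as the culture named DKmix. The control was LSK cells that carried an eGFP retrovirus, collected at day 3. All 4 were grown with serum, IL-3, SCF, Flt3 and IL-11. The sources used here give neither strain and age of the mice, nor the number of animals or cultures pooled, nor the vector's promoter. With 1 array per group no test was possible, so every difference below is a ratio of single arrays, and a gene counts as higher or lower from 2-fold on.

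Markers of other cell types differed between the arrays. All 10 mast cell markers were above the detection floor (an intensity of 48.3, the median of all values) on both DKmix arrays, with summed intensities of 163663 at day 50 and 64599 at day 300, against 4222 on the β-catenin and 850.0 on the eGFP day 3 array, where 7 of 10 were above it. Among them, Cma1 and Mcpt2 were at or below the floor on both day 3 arrays. The 10 antigen-presenting and macrophage markers summed to 467 and 605 on the DKmix arrays, with 5 and 3 above the floor, against 24955 (10 above) with β-catenin and 19092 (8 above) with eGFP at day 3. These day 3 sums hide opposite differences, described with the immunoproteasome below. H2-Aa, H2-Eb1, Cd86, Itgax and Mpeg1 were at or below the floor on both DKmix arrays. The 10 neutrophil markers summed to 716 and 209, with 3 and 1 above the floor, against 13190 (8 above) and 103009 (10 above) at day 3. Of 9 stem and progenitor markers, 8 were above the floor with β-catenin at day 3, 7 at DKmix day 50 and 6 at day 300, against 4 with eGFP, with summed intensities of 2134, 6460 and 6609 against 550.6, while Flt3 was below it on all 4 arrays. Most of the DKmix sums came from Kit, which is in the mast cell list too, and Cd34. Kit read 3459.5 at day 50 and 1262.7 at day 300, and Cd34 2068.5 and 4292.7. The list did not move as one, since Eng read 633.5 with β-catenin at day 3 but 132.3 and 18.5 on the DKmix arrays. In such bulk samples fewer cells of a type and less RNA per cell cannot be told apart, and the part of the cell mixture in the ratios below was not tested.

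The 4 arrays also differed in how far the 3′ end of control transcripts outshone the 5′ end, a measure of RNA integrity and labelling. The Gapdh 3′ to 5′ ratio was 1.18 with β-catenin at day 3, 4.96 in DKmix at day 50 and 1.06 at day 300, against 4.14 with eGFP, and that of β-actin was 1.32, 3.41 and 1.20 against 1.83. Arrays with close Gapdh ratios were therefore paired when day 300 was set against β-catenin and when day 50 was set against eGFP, and in no other comparison made, but of these comparisons only the first also had close β-actin ratios.

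The 26S proteasome degrades proteins tagged with ubiquitin. Its barrel-shaped core has outer rings of α subunits that gate the entry and inner rings of β subunits, of which those encoded by Psmb5, Psmb6 and Psmb7 hold the proteolytic sites. The regulatory particle caps the barrel with a ring of Psmc ATPases, which unfold substrates, and with Psmd subunits that bind and remove ubiquitin. In immune cells and under interferon-γ, Psmb8, Psmb9 and Psmb10 encode replacements for the products of Psmb5, Psmb6 and Psmb7, and this immunoproteasome, together with the Psme1 and Psme2 activator, favours peptides for MHC class I presentation.

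Immunoproteasome genes and the constitutive catalytic genes they pair with are the contrast on which the results turn, so 4 of their promoter windows are printed here from RefSeq (build GRCm38.p6), each running from 250 bases before to 50 bases after the annotated start, 5′ to 3′ on the gene's strand. They are Psmb9 (chr17:34187281-34187580, minus strand), Psme1 (chr14:55578244-55578543, plus strand), Psmb5 (chr14:54617946-54618245, minus strand) and Psmb6 (chr11:70525107-70525406, plus strand). Capitals mark matches on either strand to the CCAAT box (CCAAT), to a core of the interferon-stimulated response element (GAAA, 2 bases of any kind, GAAA) or to a core of the antioxidant response element (TGACNNNGC), the site of NFE2L1 and NFE2L2.
Psmb9: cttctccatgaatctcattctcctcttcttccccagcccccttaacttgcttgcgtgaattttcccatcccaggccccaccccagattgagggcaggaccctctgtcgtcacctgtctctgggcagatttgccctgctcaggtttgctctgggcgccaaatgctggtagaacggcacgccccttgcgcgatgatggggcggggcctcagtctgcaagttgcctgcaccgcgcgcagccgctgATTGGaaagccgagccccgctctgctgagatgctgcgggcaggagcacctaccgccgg
Psme1: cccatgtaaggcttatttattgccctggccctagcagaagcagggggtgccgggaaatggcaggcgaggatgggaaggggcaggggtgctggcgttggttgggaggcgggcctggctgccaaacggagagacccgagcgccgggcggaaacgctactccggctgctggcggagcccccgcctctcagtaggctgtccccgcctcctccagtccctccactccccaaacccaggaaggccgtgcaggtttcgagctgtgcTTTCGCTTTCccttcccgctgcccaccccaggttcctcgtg
Psmb5: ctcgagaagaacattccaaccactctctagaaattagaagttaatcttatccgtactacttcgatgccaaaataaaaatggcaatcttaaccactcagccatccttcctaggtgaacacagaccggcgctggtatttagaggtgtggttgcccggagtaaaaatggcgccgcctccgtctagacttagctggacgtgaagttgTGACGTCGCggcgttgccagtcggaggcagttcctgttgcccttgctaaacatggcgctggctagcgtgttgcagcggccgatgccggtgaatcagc
Psmb6: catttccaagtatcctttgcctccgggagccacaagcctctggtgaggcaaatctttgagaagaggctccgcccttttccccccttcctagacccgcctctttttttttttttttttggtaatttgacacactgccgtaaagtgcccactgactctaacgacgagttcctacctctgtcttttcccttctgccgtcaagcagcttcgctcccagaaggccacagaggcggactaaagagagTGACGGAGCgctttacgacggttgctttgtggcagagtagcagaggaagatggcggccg
The interferon core stood in the Psme1 window, on the minus strand between 9 and 18 bases after the start. It was absent from the windows of Psmb8, Psmb9 and Psmb10. The Psmb8 and Psmb10 windows, which are not printed, held none of the motifs marked in capitals, and Psmb7 had no window. Psmb5 held the antioxidant core between bases -47 and -39 and Psmb6 between -9 and -1. Of the 37 members with a window, 4 had the interferon core (Psmb3, Psmd4, Psmd9 and Psme1), 6 the antioxidant core and 16 a CCAAT box, while these motifs occurred in 3.44%, 12.4% and 37.4% of all 32851 windows. A loose NF-κB core (GGG, 5 bases of any kind, CC, not in capitals) was in 21 members and in 50.8% of all windows. Psmb9 lies head to head with Tap1, the peptide transporter gene, and 275 bases of their windows (chr17:34187306-34187580) are shared. A match describes the letters and is not a bound site.

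At day 3 the 4 immunoproteasome genes were higher on the β-catenin array than on the eGFP array. Psmb8 read 2639 with β-catenin, 374.4 at DKmix day 50 and 1642 at day 300, against 1088 with eGFP, which made it 2.43-fold higher at day 3. Psmb9 read 1351, 220.4 and 1022 against 673.9, a day 3 ratio of 2.01-fold, just inside the threshold. The next just outside it was Psma8, described below. Psmb10 read 1597, 282.2 and 231.6 against 704.2, and was 2.27-fold higher. For Psme1, a subunit of the 11S cap, the intensities were 2589, 793.6 and 2096 against 1221, and the day 3 ratio was 2.12-fold. On all 4 of these genes β-catenin day 3 was the highest array, and DKmix day 50 was the lowest for all but Psmb10. Markers of antigen-presenting cells differed between the same day 3 arrays. The MHC class II genes H2-Aa, H2-Ab1 and H2-Eb1 were 4.53-fold, 5.92-fold and 6.61-fold higher with β-catenin, and Cd74, the class II chaperone, 6.18-fold. Cd86, a costimulatory ligand, and Ccr7, a chemokine receptor, were at least 11.5-fold and 18.5-fold higher. Csf1r, the macrophage growth factor receptor, was 5.90-fold lower (1999.5 against 11798), Itgax 5.33-fold and Mpeg1 11.6-fold lower, and Ciita had a log2 ratio of 0.22. The part of these markers in the immunoproteasome ratios was not tested.

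**Figure D1:**
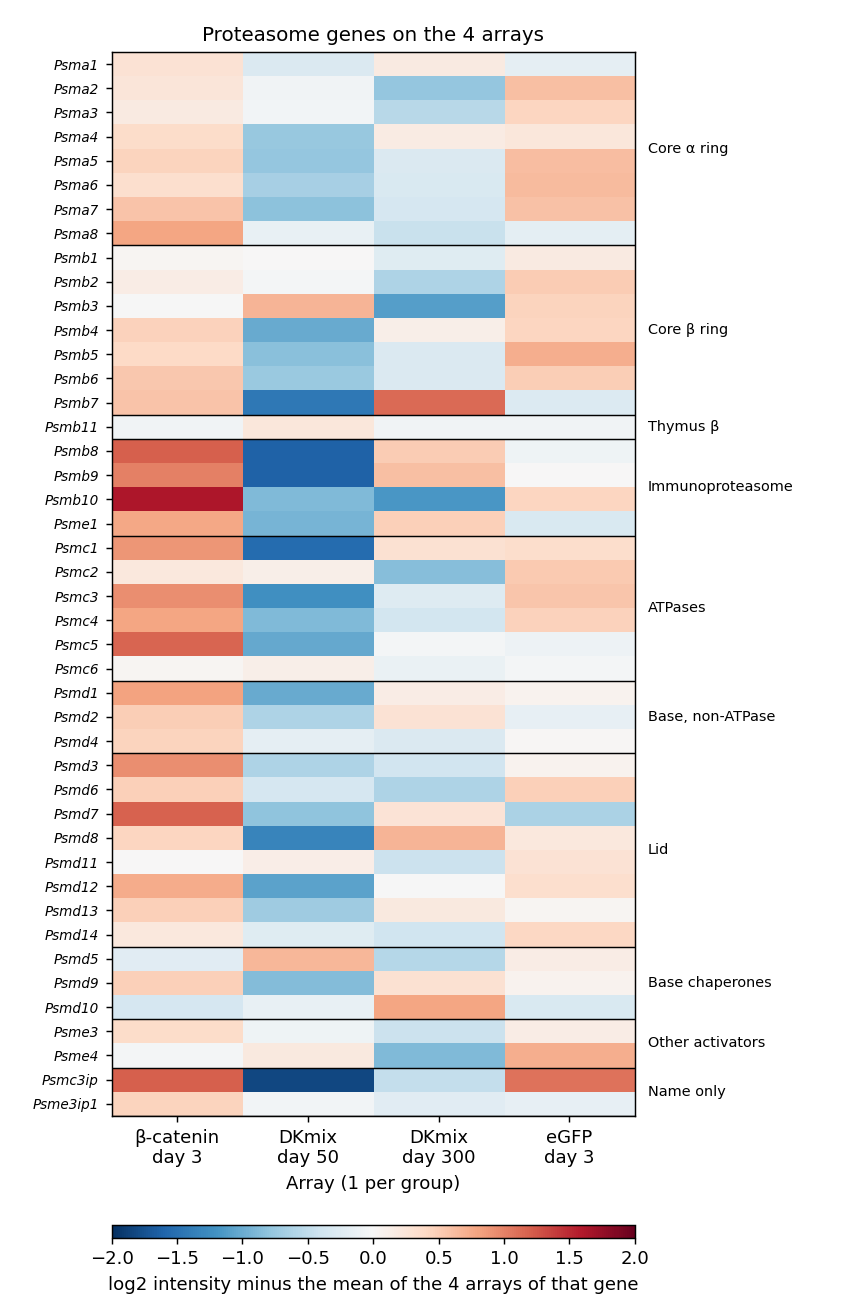
Each row is a proteasome gene and each column an array (β-catenin day 3, DKmix day 50, DKmix day 300, eGFP day 3), and the colour gives log2 intensity, floored at 48.3, minus the mean of the gene's 4 arrays. β-catenin day 3 was the highest array for 25 of 44 genes, DKmix day 50 the lowest for 25 and DKmix day 300 the lowest for 18.

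Over the whole set 6 of 43 measured members were 2-fold or more higher with β-catenin, and 0 were lower. Over all 13365 genes measured in this comparison the shares were 10.2% higher and 9.42% lower (9.59% and 7.66% of the 7574 genes above the floor on all arrays, as 41 members were), so the share of members that were higher was not far from that of all genes, and the immunoproteasome made up 4 of the 6. Scaling on spiked hybridisation controls, with the median of all genes at 0.34, gave 12 higher, and the share of all genes was not counted on that scale. The median log2 ratio of the members was 0.21, against -0.015 for all genes. Outside the immunoproteasome the median was 0.10 over 39 genes, with ratios between -0.77 (Psme4) and 1.81 (Psmd7). The other members past 2-fold were an ATPase and a lid gene. Psmc5, an ATPase of the base, read 1036 with β-catenin at day 3, 228.0 at DKmix day 50 and 452.1 at day 300, against 432.4 with eGFP (2.40-fold at day 3). Psmd7, whose product partners the lid's deubiquitinase, read 724.2, 182.4 and 385.3 against 206.6 (3.51-fold). β-catenin day 3 was the highest array for both and day 50 the lowest. A fainter Psmd7 probe set near the floor read 57.0 (β-catenin) and 59.5 (eGFP), a log2 ratio of -0.06, so its probe sets did not give the same answer.

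The standard core did not share this difference at day 3. Of the 15 α and β genes, 0 passed 2-fold in either direction, 6 were above and 9 below an equal ratio, and the median was -0.14. The catalytic gene Psmb5 read 2792 with β-catenin at day 3, 1198 at DKmix day 50 and 1742 at day 300, against 3517 with eGFP (log2 ratio -0.33 at day 3). Psmb6 read 2669, 1101 and 1504 against 2593 (0.04), and Psmb7 read 922.2, 229.8 and 1356 against 512.1 (0.85). DKmix day 50 was the lowest array for all 3, and the highest was a different one for each. Psma8 had a log2 ratio of 1.00 that rounds to 2-fold and lies just under it, at 114.3 against 57.3, close to the floor. The 6 ATPase genes had a median of 0.35, the 8 lid genes 0.31, and the base genes Psmd1, Psmd2 and Psmd4 had ratios of 0.74, 0.65 and 0.43. A second Psmd4 probe set read 1330 against 354.9, a log2 ratio of 1.91. For Psmc2 the next set gave 0.76 where the brightest gave -0.32. Of 22 members with a second measured probe set, 14 had the same direction by it at day 3. Of 2 members past 2-fold with such a set, 1 had the same direction and 0 were also past 2-fold. The chaperone genes Psmd5, Psmd9 and Psmd10 had ratios of -0.38, 0.39 and -0.04.

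Setting each inducible gene against its constitutive partner removes the scaling of the arrays. Between β-catenin and eGFP at day 3, the log2 ratio of Psmb8 exceeded that of Psmb5 by 1.61, Psmb9 exceeded Psmb6 by 0.96, and Psmb10 exceeded Psmb7 by 0.33. The Gapdh 3′ to 5′ ratio differed between these arrays (1.18 against 4.14), and its part in the difference was not tested. Where the arrays had close Gapdh ratios, Psmb8 minus Psmb5 was -0.0041 (DKmix day 300 relative to β-catenin day 3) and 0.015 (DKmix day 50 relative to eGFP day 3). The first of these rested on 1 Psmb8 probe set: with the mean of all probe sets it was -1.41. Psmb9 minus Psmb6 was 0.42 and -0.38 in the same comparisons, and Psmb10 minus Psmb7 was -3.34 and -0.16, so the pairs did not move alike at day 300.

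MHC class I genes accompanied the immunoproteasome at day 3. Of 12 in the presentation list, 4 were 2-fold or more higher with β-catenin and 0 lower, with a median of 0.93. Over all genes 10.2% were higher and 9.42% lower. H2-K1, a class I heavy chain, was 2.82-fold higher (15697 against 5571), H2-D1, another heavy chain, 3.06-fold and Nlrc5, the transactivator of class I genes, 3.94-fold. Tap1 had a log2 ratio of 0.67 and Tap2, its partner in the transporter, 0.97, both short of 2-fold, and B2m, the class I light chain, 0.01. In the interferon list 4 of 11 were higher and 0 lower, such as Gbp2 (at least 5.92-fold) and Stat2, an interferon signalling factor (3.11-fold). Nfe2l1, which encodes the transcription factor that drives proteasome genes when proteasome activity is short, was 2.96-fold higher (607.1 against 205.4), the only 1 of 15 assembly and regulation genes past 2-fold.

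By DKmix day 50 the proteasome genes were lower as a group. Compared with β-catenin day 3, 24 of 44 members were 2-fold or more lower and 0 were higher, where 15.7% of all 13742 measured genes were lower and 16.1% higher. Among genes above the floor on all arrays 18.0% were lower and 16.5% higher. The members' median log2 ratio was -1.15, against 0.067 for all genes, and 37 of 44 were below an equal ratio. The immunoproteasome median was -2.56 and that of the other 40 members -1.05. Psmb8 was 7.05-fold, Psmb9 6.13-fold, Psmb10 5.66-fold and Psme1 3.26-fold lower.

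**Figure D2:**
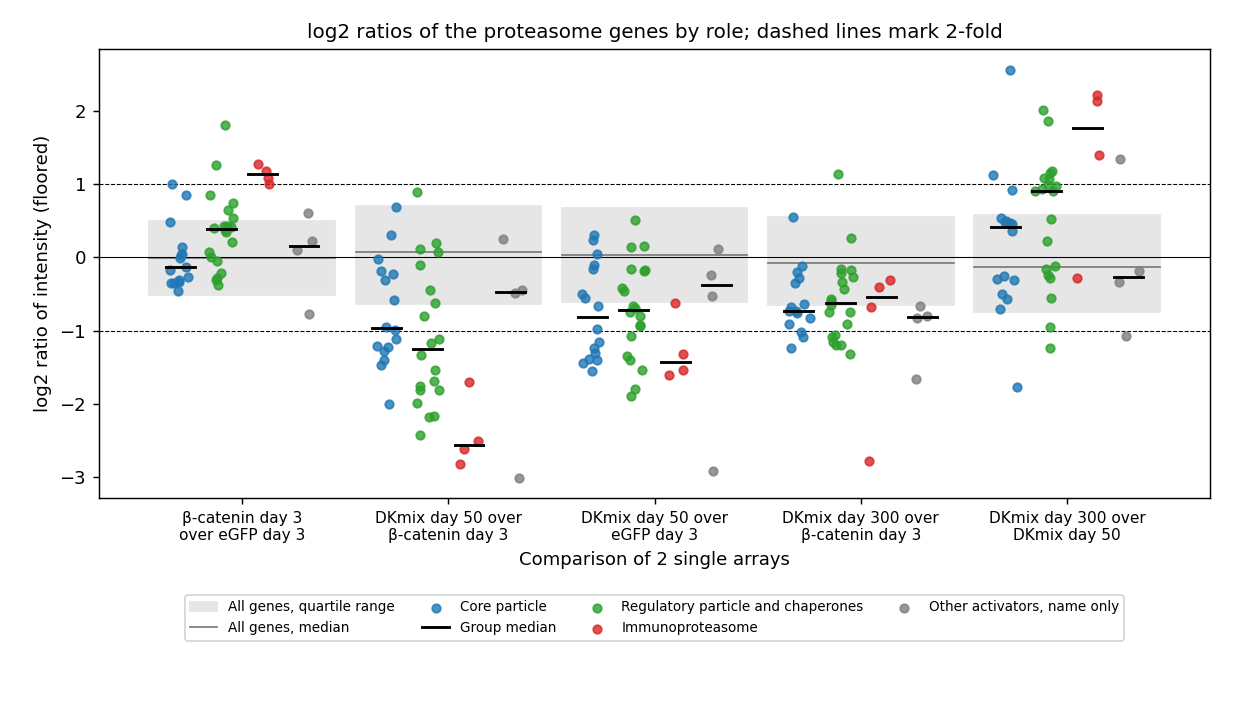
Points are log2 ratios of single proteasome genes in 5 comparisons of 2 arrays, black bars are medians of a role group, grey boxes run between the quartiles of all genes, the grey lines are their medians and dashed lines mark 2-fold. The immunoproteasome points lie above 2-fold at day 3 and at -1.71 or lower for DKmix day 50 over β-catenin.

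The regulatory particle was lower at day 50, unevenly. Of the ATPase genes, Psmc1 read 1131 with β-catenin at day 3, 209.9 at DKmix day 50 and 759.1 at day 300, against 779.2 with eGFP, and was 5.39-fold lower at day 50. Psmc5 was 4.54-fold, Psmc3 4.47-fold and Psmc4 3.22-fold lower, while Psmc2 and Psmc6 had log2 ratios of -0.10 and 0.07. In the lid, Psmd7 was 3.97-fold, Psmd12 3.51-fold, Psmd8 3.37-fold, Psmd3 2.91-fold and Psmd13 2.26-fold lower, and Psmd6, Psmd14 and Psmd11 had log2 ratios of -0.80, -0.45 and 0.12. The base genes Psmd1, a scaffold, and Psmd2 were 3.50-fold and 2.16-fold lower, and Psmd4, the ubiquitin receptor, had a ratio of -0.63. Psmd9 was 2.52-fold lower, whereas the other chaperone genes Psmd5 and Psmd10 had ratios of 0.89 and 0.20.

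In the core, 7 of 15 genes were 2-fold or more lower at day 50 and 0 higher. The constitutive catalytic genes were among them: Psmb7 was 4.01-fold, Psmb6 2.42-fold and Psmb5 2.33-fold lower. Psmb4 was 2.78-fold, Psma7 2.64-fold, Psma5 2.31-fold and Psma4 2.17-fold lower. Psma6 and Psma8 were just inside 2-fold at log2 ratios of -0.99 and -0.95, and Psma1, Psma3, Psma2, Psmb2 and Psmb1 lay between -0.59 and -0.03. Psmb3 alone in the core was above an equal ratio, at 11013 against 6850 (0.68).

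Probe sets of the same gene disagreed at day 50 more than at day 300. For 15 members with 2 or more probe sets above the floor on all arrays, the lowest and highest log2 ratio of a gene lay a median of 1.30 apart at day 50 relative to β-catenin day 3, with 9 genes at 1 or more, and 0.31 apart at day 300 relative to the same array, with 4 genes at 1 or more. Psmb3 shows this: its second probe set read 1822 at day 50 and 4388 at β-catenin day 3, a ratio of -1.27 where the brighter set gave 0.68. For Psmc2 the next set gave -1.52 and for Psmd4 -2.32, each lower than the brightest set. For Psmd11 the other sets above the floor on all arrays gave -0.11, -0.60 and -1.37, also lower. For Psma5 the next set gave -0.01, for Psma6 0.36 and for Psmb4 0.37, each higher. Of 11 members past 2-fold at day 50 with a second measured probe set, 10 had the same direction by it and 2 were also past 2-fold. The DKmix day 50 array had the highest Gapdh and β-actin 3′ to 5′ ratios, whose part in this was not tested.

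Set against eGFP day 3, DKmix day 50 (Gapdh 3′ to 5′ ratio 4.96 against 4.14, but β-actin ratio 3.41 against 1.83) gave a smaller shift in the same direction. Of 44 members 17 were 2-fold or more lower and 0 higher, where 15.0% of all genes were lower and 15.6% higher (16.0% and 15.5% of those above the floor on all arrays), and the median was -0.72, against 0.035 for all genes. Scaled on the hybridisation controls, with the median of all genes at -0.41, 30 were lower, and the share of all genes was not counted on that scale. Psmc1 was 3.71-fold, Psmc3 3.46-fold, Psmb9 3.06-fold, Psmb5 2.94-fold, Psmb8 2.91-fold and Psmb4 2.72-fold lower. Psmb10 was 2.50-fold lower, and Psme1 and Psmd7, both past 2-fold against β-catenin day 3, had log2 ratios of -0.62 and -0.18.

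At DKmix day 300 most of the set was moderately below β-catenin day 3, an array with a like Gapdh ratio. Of 43 measured members 11 were 2-fold or more lower and 1 was higher, where 14.4% of all 12656 measured genes were lower and 14.0% higher (14.5% and 15.2% of those above the floor on all arrays). The median was -0.68, against -0.076 for all genes, and 40 of 43 were below an equal ratio. With the arrays scaled on spiked hybridisation controls, which put the median of all genes at -0.90, 40 members were 2-fold or more lower. The share of all genes was not counted on that scale. The shift was spread over the parts of the complex: medians were -0.73 for the 15 core genes, -1.11 for the 6 ATPases, -0.68 for the 8 lid genes and -0.54 for the 4 immunoproteasome genes. Within the ATPase ring Psmc5, Psmc3, Psmc4 and Psmc2 were 2.29-fold, 2.28-fold, 2.24-fold and 2.08-fold lower, and Psmc1 and Psmc6 had ratios of -0.58 and -0.17. The lid genes Psmd3 and Psmd6 were 2.49-fold and 2.12-fold lower, as were, in the core, Psma8 (at least 2.37-fold), Psmb3 (2.12-fold) and Psma2 (2.03-fold). Both Psmb3 probe sets were past 2-fold here.

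The immunoproteasome genes took different courses by day 300. Psmb10 was 6.90-fold lower than at β-catenin day 3, the largest difference in the set in this comparison, while Psmb8, Psmb9 and Psme1 had log2 ratios of -0.68, -0.40 and -0.30. Its constitutive counterpart Psmb7 went the other way, with a log2 ratio of 0.56, so that Psmb10 minus Psmb7 was -3.34, a 10.1-fold divergence, and each was read by a single probe set. The second Psmb8 probe set was faint. It read 112.3 with β-catenin at day 3, 26.6 at DKmix day 50 and 9.9 at day 300, against 61.9 with eGFP. Both DKmix values were below the floor, so it cannot show a course from day 50 to day 300. It had the same direction as the first set at day 3 (0.86) and at DKmix day 50 over β-catenin. At day 300 over β-catenin it gave -1.22 or lower, where the first set gave -0.68. Psmd10, also known as gankyrin, was the member past 2-fold on the high side, 2.19-fold above β-catenin day 3. It read 247.7 there, 283.7 at DKmix day 50 and 542.4 at day 300, against 255.4 with eGFP, so day 300 stood apart from the other arrays.

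**Figure D3:**
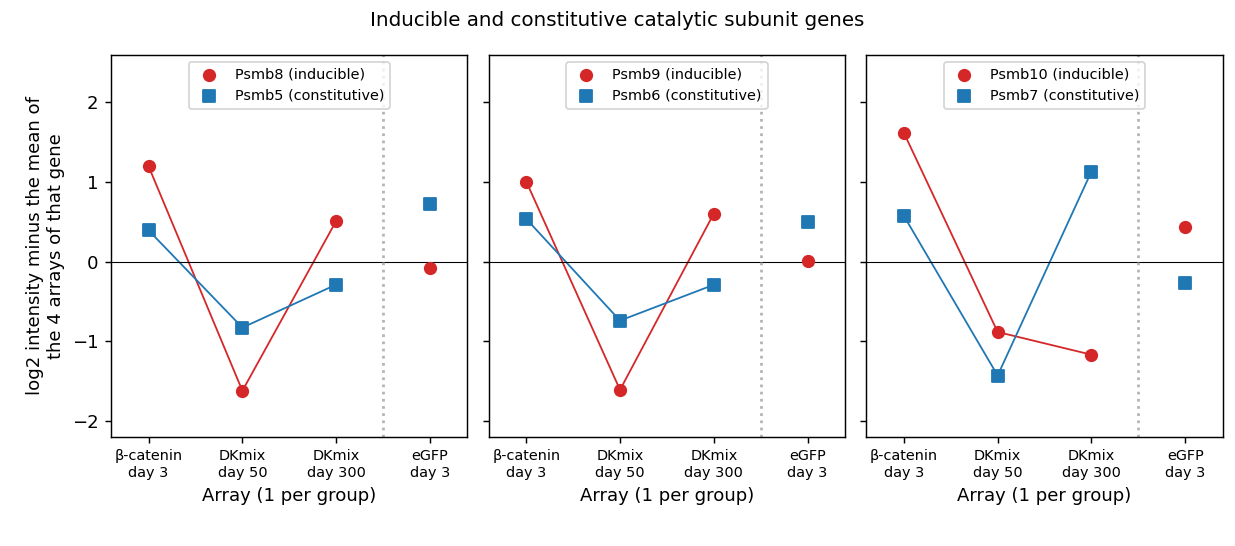
Each panel plots an inducible catalytic gene (red circles) and its constitutive partner (blue squares) as log2 intensity minus the mean of that gene's 4 arrays, with a line over the β-catenin time course and eGFP day 3 to the right of the dotted line. Psmb8 and Psmb9 were low at day 50 and not at day 300, whereas Psmb10 was low on both DKmix arrays and Psmb7 on DKmix day 50 only.

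Between the DKmix arrays, 12 of 44 members were 2-fold or more higher at day 300 than at day 50 and 3 were lower, where 15.1% of all 13100 measured genes were higher and 15.9% lower (17.7% and 15.5% of those above the floor on all arrays). The members' median was 0.48, against -0.14 for all genes. Psmb7 was 5.90-fold, Psmb9 4.64-fold, Psmb8 4.38-fold, Psmd8 4.02-fold and Psmc1 3.62-fold higher, and Psme1 2.64-fold. Psmd9, Psmd1, Psmb4, Psmd7 and Psmd12 were between 2.09-fold and 2.26-fold higher, and Psmc3ip at least 2.54-fold. Those lower were Psmb3 (3.41-fold), Psmd5 (2.35-fold) and Psme4 (2.11-fold), which encodes the PA200 activator. The Psmb3, Psme4 and Psmc3ip calls rested on the brightest probe sets. The next ones gave log2 ratios of 0.25 for Psmb3, 0.42 and 0.75 for Psme4, and -0.71 for Psmc3ip. Of 5 members past 2-fold here with a second measured probe set, 2 had the same direction by it and 0 were also past 2-fold. Among all 18 members with such a set, 8 had the same direction by it. With the scale set on spiked hybridisation controls the split was 9 higher and 4 lower, and the shares of all genes were not counted.

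β-catenin over eGFP at day 3 and DKmix day 300 over day 50 share no array, and each sets an array with a low Gapdh 3′ to 5′ ratio over an array with a high ratio. Across 43 members the log2 ratios of these comparisons had a Pearson r of 0.58 and a Spearman rho of 0.62, and 31 members lay on the same side of an equal ratio in both (21 above, 10 below). Across 11173 genes the Pearson r was 0.14 and the Spearman rho 0.14. Genes on an array share its scale, labelling and RNA quality and are not independent, so these are descriptions. Psmb10 was the immunoproteasome gene that went against it, at 1.18 and -0.29.

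**Figure D4:**
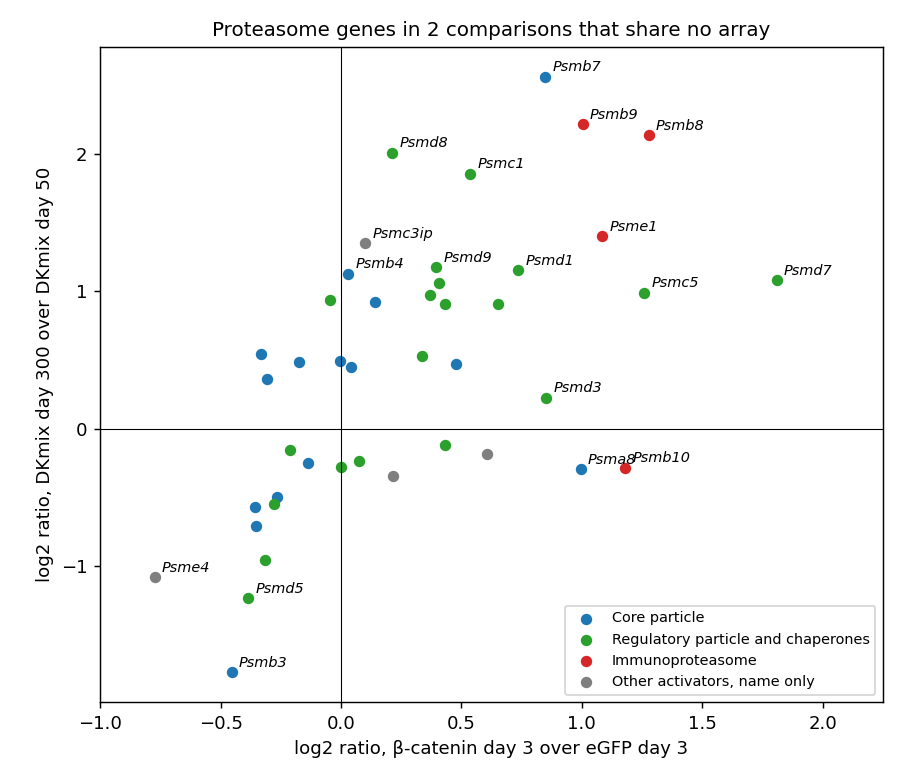
Each point is a proteasome gene, placed by its log2 ratio for β-catenin day 3 over eGFP day 3 (x axis) and for DKmix day 300 over DKmix day 50 (y axis), which share no array. The points run from Psmb3 and Psme4 at lower left to Psmb7, Psmb8 and Psmb9 at upper right, with Psmb10 and Psma8 to the right below 0.

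Taking all 4 arrays, 23 of 44 members had both DKmix values below both day 3 values and 1, Psmd10, had both above, where the shares of all 15292 genes above the floor on any array were 16.8% and 15.5%. Among genes above the floor on all arrays they were 21.9% and 21.3%. On the scale of the hybridisation controls 40 members had both DKmix values below and 0, so not Psmd10 either, had both above. That scale put the median of all genes over β-catenin day 3 at -0.73 (day 50) and -0.90 (day 300). The shares of all genes were not counted on it, so the 40 cannot be set against the shares above. The 23 included 11 of the 15 standard core genes, all but Psma1, Psma8, Psmb3 and Psmb7. They also included 9 of the 17 regulatory particle genes (Psmc1, Psmc2, Psmc3, Psmc4, Psmd3, Psmd4, Psmd6, Psmd12 and Psmd14), the activator gene Psme3, Psmc3ip and, of the immunoproteasome, Psmb10. These calls rest on the brightest probe sets. By another probe set above the floor on all arrays, Psma3, Psma5, Psma6, Psmb4, Psmc2 and Psmd4 did not keep the separation. Psma7, Psmc4, Psmd6, Psme3 and Psmc3ip kept it by such a set. The comparisons with close Gapdh ratios had 17 members (day 50 relative to eGFP) and 11 members (day 300 relative to β-catenin) at 2-fold or more lower. Both held Psmb10, Psmc3, Psmc4 and Psmc3ip, which is 23.5% of the first list and 36.4% of the second. Over all genes these shares were 31.7% and 35.1%, so the lists of members overlapped less by the first share and about alike by the second. The 4 genes were 9.30% of the 43 members measured in both, where 5.33% of all 11184 such genes were lower in both.

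A looser threshold of 1.5-fold took in more members. At day 3, 12 members were higher with β-catenin and 1 lower (all genes 21.4% and 21.8%). Relative to β-catenin day 3, 29 were lower and 2 higher at DKmix day 50 (26.4% and 29.3%), and 27 were lower and 1 higher at day 300 (27.2% and 24.0%). Relative to eGFP, 26 were lower and 0 higher at day 50 (26.0% and 28.3%). Between the DKmix arrays 18 were higher and 5 lower at day 300 (24.7% and 31.2%).

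Genes around the proteasome were less uniform. Of 15 assembly and regulation genes, 6 were 2-fold or more lower and 0 higher at DKmix day 50 than at β-catenin day 3, with a median of -0.57. Over all genes 15.7% were lower and 16.1% higher. The lowest were Psmf1, a proteasome inhibitor (2.74-fold), Psmg3, an assembly chaperone (2.52-fold), Uchl5, a deubiquitinase of the regulatory particle (2.17-fold), and Nfe2l1 (2.16-fold). At day 300, 2 were lower, the assembly chaperone genes Psmg4 (2.51-fold) and Psmg1 (2.16-fold), and Nfe2l2, the oxidative stress factor, was 2.61-fold higher. The 10 ubiquitin supply and delivery genes had medians of -0.30 at day 50 and 0.25 at day 300 over β-catenin day 3, with 0 past 2-fold at day 50, and at day 300 Ubqln4 2.05-fold higher and Ubqln2, another shuttle of tagged proteins, 2.10-fold lower. At day 300 14.4% of all genes were lower and 14.0% higher, and neither list exceeded these shares.

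Of the class I list, 6 of 12 genes were 2-fold or more lower at DKmix day 50 than at β-catenin day 3 and 4 at day 300, with 0 higher in either. Over all genes 15.7% were lower at day 50 and 14.4% at day 300, and 16.1% and 14.0% were higher. Tap1, which shares its promoter region with Psmb9, was 3.70-fold lower at day 50 and had a log2 ratio of -0.69 at day 300, beside -2.62 and -0.40 for Psmb9. Tap2 was 3.30-fold and H2-K1 3.56-fold lower at day 50. Nlrc5 was below the floor on both DKmix arrays, at least 6.06-fold lower than at β-catenin day 3. Ifngr2, a chain of the interferon-γ receptor, read 572.9 with β-catenin at day 3, 36.2 at DKmix day 50 and 184.2 at day 300, so it was at least 11.9-fold lower at day 50 and 3.11-fold lower at day 300. The antigen-presenting markers given above were low on both DKmix arrays, and their part in these ratios was not tested.

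Members that entered by name or stood apart from the complex had their own patterns. Psmc3ip read 389.4 with β-catenin at day 3, 48.2 at DKmix day 50, just under the floor, and 122.9 at day 300, against 362.9 with eGFP. It was at least 8.06-fold and 3.17-fold lower than β-catenin day 3 on the DKmix arrays. Its second probe set was 2-fold or more lower in both, with log2 ratios of -1.25 and -1.97. Psme3ip1 was within 2-fold in every comparison, as was Psme3, the nuclear PA28γ activator. Psmb11, the thymic catalytic subunit, was above the floor only at DKmix day 50, at 59.9.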

How the data were processed

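Intensities of 45101 probe sets on 4 arrays were used as deposited. Per the submitters' processing notes the authors made these intensity values with MAS5. No version, detection call or build is stated there. Per the labels, biotinylated cRNA came from 6 µg of total RNA. The mean without the top and bottom 2% of values was 150, rounded, on the β-catenin day 3 array. It was not taken on the other arrays, so a common scaling before deposit was not checked this way. No further scaling was done. Genes were named from the platform's annotation (34945 probe sets with 1 symbol, 932 with several, left out, and 64 control probe sets left out), and all 44 members matched RefSeq symbols. Each gene took its brightest probe set. Intensities below 48.3, the median of all values, were set to it before log2 ratios were taken. A ratio with 1 array at this floor is a bound ("at least"), and a gene at it on both was not measured. The ratio code was checked on simulated data.

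The members and lists were chosen with earlier results of these data known. All members are named, with the largest ratios past 2-fold in full. Of the other lists some genes past 2-fold are named, and these are not always those with the largest ratios. At day 3 Tap1, Tap2 and B2m, not past 2-fold, were chosen after their values were seen. The only error measure was the disagreement between 2 probe sets of a gene, taken over all genes. It is given per probe set, as the SD of the difference divided by the square root of 2, so the disagreement itself is larger. This SD (log2) was 0.64 at day 3, 0.80 for DKmix day 50 and 0.63 for day 300 over β-catenin day 3. For DKmix day 300 over day 50 it was 0.92, and for day 50 over eGFP 0.71. The measure leaves out differences between cultures, and the number of arrays limits the precision. Python 3.11.15, numpy 2.4.6 and pandas 2.3.3 were used. The alternatives were quantile normalization, scaling on 9 hybridisation control probe sets, floors at percentiles 25 and 75, the mean of all probe sets, leaving out probe sets whose names mark shared targets, a 1.5-fold threshold and, chosen after seeing the data, lowess centring (fraction 0.3).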

Additional observations from a re-analysis of the deposited data

How the results depend on the processing

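Quantile normalization, both floors and lowess centring left the counts within 1.5 times and the medians within 1.5-fold of those reported. Scaling on the hybridisation controls moved the median of all genes to 0.34 for β-catenin over eGFP at day 3, and to -0.73 (day 50) and -0.90 (day 300) for DKmix over β-catenin day 3. On that scale the members' medians over β-catenin day 3 were -2.09 and -1.73, those of the immunoproteasome -3.50 and -1.59, and 40 members were lower and 0 higher at day 300. There were 12 members higher with β-catenin than with eGFP, 30 lower for DKmix day 50 over eGFP, and 40 with both DKmix arrays below and 0 with both above. The shares of all genes were not counted on that scale, so these counts have no share to be set against. At 1.5-fold, 12 members were higher and 1 lower at day 3, 2 were higher at day 50 and 27 lower at day 300 over β-catenin day 3, 26 were lower for day 50 over eGFP and 5 for day 300 over day 50. With the mean of all probe sets, 1 member was lower at day 3, the immunoproteasome medians at day 300 were -1.25 over β-catenin day 3 and 0.88 over day 50, and Psmb8 minus Psmb5 was -1.41 over β-catenin day 3 and, compared with 1.59 from the brightest sets, -0.19 over day 50. Here the faint second Psmb8 probe set enters the mean. Psma5 at day 50 over β-catenin day 3 became 0.85. There a faint probe set entered the mean, with 36.6 at day 50 and 2.7 at β-catenin day 3, both below the floor. The brighter Psma5 sets gave -1.21 and -0.01. Without the _x_at, _s_at and _a_at probe sets, 0 members were higher at day 300 and 0 had both DKmix arrays above, since Psmd10 had no other probe set. Psmd13 at day 50 became 0.44, and Psmb3 and Psme4 for day 300 over day 50 became 0.25 and 0.42. Of 1471 single-gene values under the alternatives, 157 moved by over 1.5-fold and 4 reversed. No paired analysis was possible because each group held 1 array.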
